A study of Mus musculus with 6 samples.

Results

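The genes described are 33 enzymes and regulators of cholesterol and fatty acid synthesis, taken by gene symbol from the 24421 genes of a poly(A) RNA sequencing table of mouse bone marrow dendritic cells. All 33 were found, and all 33 passed the filter on low counts that left 13010 genes for testing. The TCL group was 3 samples labelled as murine chronic lymphocytic leukaemia (CLL), from an adoptive transfer model in which leukaemic B cells are given to recipient mice, set against 3 wild-type (WT) samples. Both groups were C57BL/6 mice, and in both the cells were sorted by flow cytometry on dendritic cell markers that the labels do not name. The sources used here give no age, sex, disease stage or number of mice per sample. The p-values therefore rest on the spread among 3 libraries a group, some of which may be technical.

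Cells build cholesterol from acetyl-CoA through mevalonate, isoprenoids, squalene and lanosterol. The enzymes are switched on together by SREBP-2 (gene Srebf2), a transcription factor held in the endoplasmic reticulum by SCAP and the INSIG proteins while sterols are plentiful. SREBP-1 (Srebf1) acts chiefly on the fatty acid branch, in which ATP citrate lyase, acetyl-CoA carboxylase and fatty acid synthase make palmitate. Elongases then lengthen the chain, and desaturases add double bonds. In macrophages and dendritic cells these pathways are known to change with interferon and Toll-like receptor signals.

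Libraries held 17158819 to 25674314 reads. On the first principal component WT library 7 stood away from its group, at 50.2 against 20.8 and 24.5 for the other WT libraries. It also had the highest summed level of the stromal list, at 987 CPM, and of the B cell list, at 918 CPM, where CPM are reads scaled to a common effective library size. The dendritic cell marker Itgax was present in every library, from 375 to 655 CPM in TCL and from 383 to 528 CPM in WT, but 5 of 11 dendritic cell markers fell and 0 rose in TCL. Neutrophil markers were abundant in both groups, with S100a9 from 3226 to 8288 CPM in TCL and from 7699 to 17181 CPM in WT. Of 12 neutrophil markers none passed in edgeR, and 11 had a log2 fold change below 0. Values ran from -1.25 for Camp to 0.0026 for Cxcr2, with S100a9 at -0.97. Of 10 B cell markers 5 fell and of 6 tested erythroid markers 1 rose. All 10 B cell markers had a log2 fold change below 0, and all 6 erythroid markers one above 0. Of these 6 erythroid markers 5 had an unadjusted p under 0.05 in edgeR. Of 16 cell cycle genes none passed in edgeR, with 1 at an unadjusted p under 0.05, and 15 had a log2 fold change above 0. TCL library 8 differed from the other TCL libraries in several lists. Its sum was 1878 CPM for the cell cycle, against 1106 and 1184 CPM in TCL libraries 4 and 10. On the erythroid list TCL library 8 had 675 CPM, against 278 and 245 CPM in TCL libraries 4 and 10 and 116 to 168 CPM in WT. For the dendritic cell list its sum was 13130 CPM, against 29714 and 26940 CPM in TCL libraries 4 and 10 and 38296 to 50164 CPM in WT. Most of that sum was Cd74 and H2-Ab1, at 8879 and 3122 CPM in TCL library 8. Among the TCL libraries, library 8 was also lowest in Itgax, Zbtb46, Irf4, Cd209a and Xcr1. It was highest in Batf3 and lay between the others in Flt3, Irf8 and Clec9a. In bulk samples fewer cells of a type and less RNA per cell cannot be told apart.

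Of the 33 genes 1 rose and 1 fell in TCL, and 31 did not pass the test. Scd2, a stearoyl-CoA desaturase, rose 1.79-fold, and Cyp51, the lanosterol demethylase, fell by 0.70 on the log2 scale, to 28.8 ± 3.32 CPM in TCL, against 46.6 ± 4.97 CPM in WT (SD, n = 3 each). The test was edgeR's quasi-likelihood test with Benjamini-Hochberg adjustment over all genes tested and a threshold of 0.05. It called 604 genes, 4.64% of all genes tested, with 2.03% higher and 2.61% lower, so the share of these genes that was called lay near that of the table as a whole. At an unadjusted p under 0.05 there were 6 of the 33, against 22.4% of all genes tested. Without TCL library 8 the genes called were Scd2 and Fads1, and without WT library 7 Scd2 (adjusted p 0.0542) and Cyp51 (0.127) were both over the threshold. When libraries were scaled to their size only, 54.3% of all calls were higher in TCL, against 43.7% with TMM factors.

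More genes of the set lay above 0 than below. Of the 33 log2 fold changes 20 were above 0 and 13 below, against 6505 above and 6505 below over all genes tested, and the median was 0.11 against 0.000026. In 12 genes the libraries of the groups did not overlap, 9 higher and 3 lower in TCL. This is 36.4% of the set, against 28.2% of all genes tested, of which 14.1% were higher and 14.2% lower in TCL. The 95% interval of the fold change lay within 2-fold in both directions for 25 of the 33 genes, and within 1.5-fold for 9. For most of the set a change of 2-fold or more thus lay outside the interval. A change of 1.5-fold in either direction lay outside it for only 9.

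**Figure D1:**
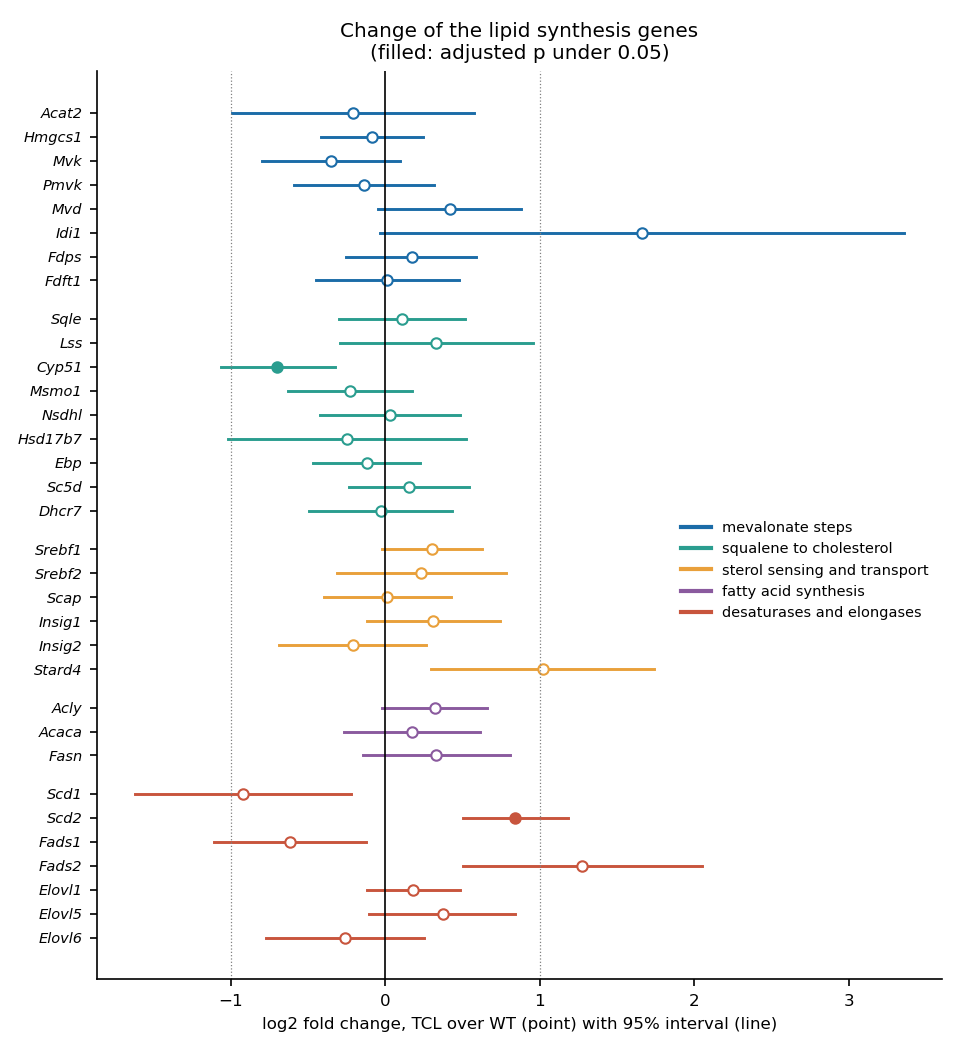
Log2 fold change of each gene, TCL over WT, on the x axis, as a point with its 95% interval as a line, by role. Filled points passed the adjusted p of 0.05, and dotted lines stand at 2-fold. Only the points of Cyp51 (-0.70) and Scd2 (0.84) are filled, and Idi1 has the widest interval.

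Promoters are shown for 3 sterol enzymes, Cyp51, which fell, Msmo1, the enzyme of a later step, and Hmgcs1, at the start of the mevalonate steps. They serve to show the CCAAT box, which all 3 hold, and the sterol regulatory element, matched only in Hmgcs1. Each runs from 250 bases before to 50 bases after the gene's start in RefSeq on GRCm38.p6. Capitals mark matches to the CCAAT box, read as ATTGG on the other strand, and to the sterol regulatory element searched as TCACNCCAC.
Cyp51 (chr5:4104648-4104947, minus strand): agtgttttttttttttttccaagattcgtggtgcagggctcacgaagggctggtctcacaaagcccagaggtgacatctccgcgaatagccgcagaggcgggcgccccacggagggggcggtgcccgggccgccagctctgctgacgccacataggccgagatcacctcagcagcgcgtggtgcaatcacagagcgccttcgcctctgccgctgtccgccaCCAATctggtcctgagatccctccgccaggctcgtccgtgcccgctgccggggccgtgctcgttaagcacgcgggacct
Msmo1 (chr8:64733529-64733828, minus strand): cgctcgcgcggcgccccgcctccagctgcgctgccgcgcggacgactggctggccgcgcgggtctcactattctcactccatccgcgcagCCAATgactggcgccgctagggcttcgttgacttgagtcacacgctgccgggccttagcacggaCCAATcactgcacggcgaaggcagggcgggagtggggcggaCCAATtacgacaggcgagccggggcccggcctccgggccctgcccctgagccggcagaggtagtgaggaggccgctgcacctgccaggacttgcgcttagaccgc
Hmgcs1 (chr13:119690101-119690400, plus strand): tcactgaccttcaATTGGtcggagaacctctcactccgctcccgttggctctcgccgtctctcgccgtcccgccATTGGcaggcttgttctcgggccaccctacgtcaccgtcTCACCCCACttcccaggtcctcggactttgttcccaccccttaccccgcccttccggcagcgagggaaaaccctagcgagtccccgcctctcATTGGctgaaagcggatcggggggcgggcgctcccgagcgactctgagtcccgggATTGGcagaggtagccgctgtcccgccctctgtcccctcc

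Of the 33 genes 26 had an entry among the RefSeq promoters. A CCAAT box, the site of NF-Y, a factor that works beside SREBP at many sterol genes, stood on either strand of at least 1 promoter in 21 of these 26, against 41.1% of all genes with an entry. The GC box GGGCGG was also found in 21 of 26, against 38.2%. The sterol regulatory element in the spelling TCACNCCAC was found in 1, Hmgcs1, at position -137 from the start, and in 1.44% of all genes with an entry. Other spellings of the element were not searched, so a promoter without a match may still hold one. In the 3 promoters printed no match overlapped another. These matches describe letters in a window of 300 bases and say nothing of binding. Cyp51 had 1 CCAAT box, Msmo1 3 and Hmgcs1 4. A link between the number of boxes and the change in TCL was not tested. The values of each gene are given below.

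The mevalonate steps, from acetoacetyl-CoA to squalene, comprised 8 genes, of which none passed the test. Hmgcs1 makes HMG-CoA. It had 41.8, 38.0 and 47.1 CPM in TCL libraries 4, 8 and 10, against 44.2, 46.4 and 44.2 CPM in WT libraries 3, 7 and 9. The groups overlapped, and the log2 fold change was -0.086 (95% interval -0.42 to 0.25), with a sign that turned when libraries were scaled to their size only.

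Mvk, mevalonate kinase, had 11.4, 12.8 and 10.4 CPM in TCL and 15.2, 13.9 and 15.0 CPM in WT. The groups lay apart, but the difference of -0.35 on the log2 scale (SE 0.20) did not pass, at an adjusted p of 0.327. Mvd, the decarboxylase that makes isopentenyl diphosphate, had 42.3, 25.4 and 37.2 CPM in TCL and 25.4, 28.1 and 25.1 CPM in WT. TCL libraries 4 and 10 were above every WT library, and TCL library 8 lay among them, with an adjusted p of 0.266.

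Pmvk, phosphomevalonate kinase, Fdps, which makes farnesyl diphosphate, and Fdft1, squalene synthase, had log2 fold changes of -0.14, 0.17 and 0.013. Acat2, which joins acetyl units, had one of -0.21. Their groups overlapped. The level of Idi1, the isomerase of isopentenyl diphosphate, was the lowest of the 33, with 12, 30 and 22 reads in TCL libraries 4, 8 and 10 and 5, 2 and 9 reads in WT libraries 3, 7 and 9. All TCL values were above all WT values, and the log2 fold change was 1.66 (SE 0.76), which did not pass at an adjusted p of 0.231.

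The counts of some of these genes are uncertain because other genes carry the same letters. Of the 50-base windows of the longest coding transcript, 86.4% of Fdps, 45.9% of Acat2, 30.7% of Fdft1 and 30.5% of Idi1 occurred in a transcript of another gene in GENCODE M21, as did 52.6% of Acaca. Fdft1 shares exon bases with Ctsb, which runs on the other strand, and the strand setting of the counting is not given in the sources used here. In the other 28 genes this share was under 20%. It was 4.66% for Scd1 and 4.01% for Scd2, with matches to each other and to Scd3, Scd4 and AC123853.3.

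The steps from squalene to cholesterol comprised 9 genes, of which Cyp51 fell and 8 did not pass. CYP51 removes a methyl group from lanosterol, and its gene spans 4081145 to 4104746 on the minus strand of chromosome 5 in GRCm38. It had 25.2, 29.4 and 31.7 CPM in TCL libraries 4, 8 and 10, against 42.4, 52.1 and 45.4 CPM in WT libraries 3, 7 and 9. Every TCL value was below every WT value. The log2 fold change was -0.70 (SE 0.16, 95% interval -1.07 to -0.33, adjusted p 0.0444 in edgeR's test). The call is close to its threshold. It was lost on leaving out any single library, with the adjusted p lowest without TCL library 8, at 0.0533, and highest without TCL library 4, at 0.152. It was also lost with scaling to library size only (adjusted p 0.0826). The sign was negative in every setting run.

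The other enzymes between squalene and cholesterol did not pass the test. Msmo1, a sterol methyl oxidase that acts after Cyp51, had 40.6, 46.5 and 38.0 CPM in TCL and 47.9, 58.8 and 40.3 CPM in WT. The groups overlapped, with a log2 fold change of -0.23 (95% interval -0.63 to 0.17). Sqle, squalene epoxidase, an early and often limiting step, had 16.5, 16.0 and 16.7 CPM in TCL and 15.8, 14.0 and 15.8 CPM in WT. Its fold change on the log2 scale was 0.11 (95% interval -0.30 to 0.52), which lies within 1.5-fold.

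Lss, lanosterol synthase, and Nsdhl and Hsd17b7, which complete the demethylation of the sterol ring, had log2 fold changes of 0.33, 0.028 and -0.25. Ebp, Sc5d and Dhcr7, which shift, add and remove double bonds in the ring, had log2 fold changes of -0.12, 0.15 and -0.03. The signs of Nsdhl and Dhcr7 turned in some settings, as given under the processing. Summed over the 17 sterol synthesis enzymes, levels were 395, 417 and 378 CPM in TCL libraries 4, 8 and 10, against 409, 438 and 413 CPM in WT libraries 3, 7 and 9. The sums of the groups overlapped. For the 9 genes from squalene to cholesterol alone the sums lay apart, from 218 to 248 CPM in TCL and from 250 to 263 CPM in WT. Without Cyp51 they overlapped, from 186 to 218 CPM in TCL and from 208 to 211 CPM in WT.

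**Figure D2:**
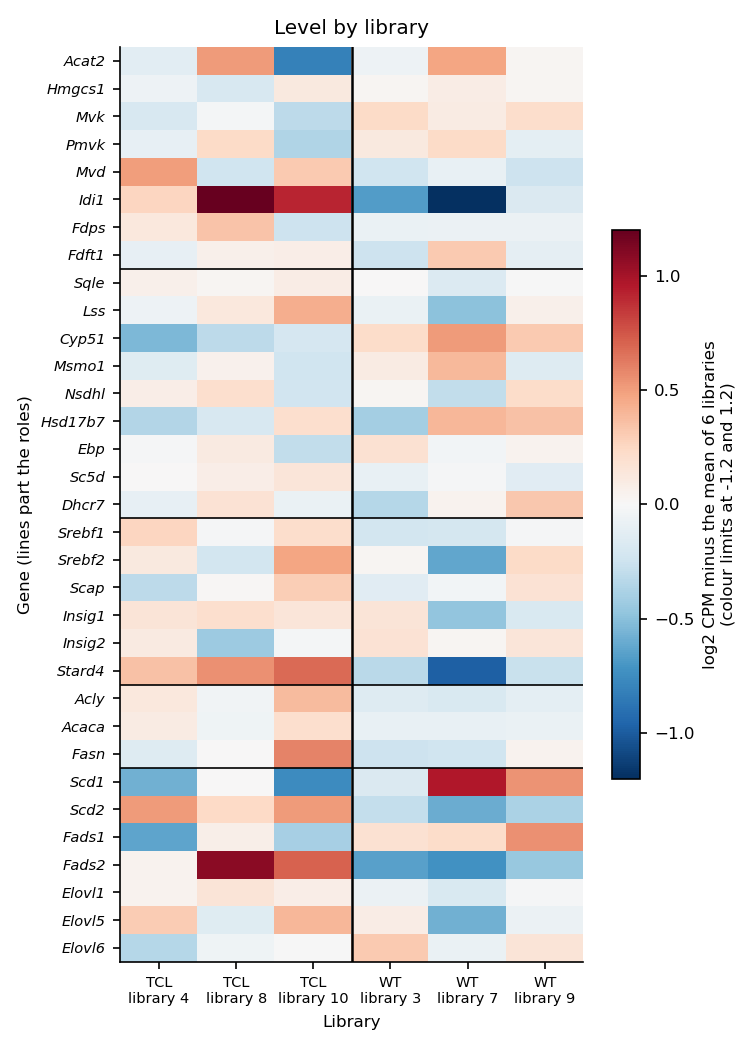
Level of each gene (rows, parted by role) in each library (columns, TCL left and WT right), as log2 CPM minus the mean of the 6 libraries, in colour. Scd2 and Stard4 are red in TCL and blue in WT, as is Fads2 except for a pale TCL library 4. Cyp51 and Fads1 are mostly the reverse, and most sterol enzymes are pale throughout. Idi1 runs past the colour limits in TCL library 8 and WT library 7, where it had 30 and 2 reads.

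None of the 6 genes of sterol sensing and transport passed the test. Srebf2 had 180, 143 and 230 CPM in TCL libraries 4, 8 and 10 and 169, 107 and 194 CPM in WT libraries 3, 7 and 9. The spread within each group was larger than the difference between them, and the log2 fold change was 0.23 (SE 0.24). Srebf1 had 105, 86.9 and 102 CPM in TCL and 75.3, 76.0 and 87.0 CPM in WT, with TCL library 8 and WT library 9 nearly level and an adjusted p of 0.256.

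Scap, the escort of the SREBPs, differed by 0.012 on the log2 scale (95% interval -0.40 to 0.42), and its sign turned in some settings. Insig1, which retains SCAP and is itself switched on by SREBP, had 30.3, 31.2 and 29.99 CPM in TCL and 30.2, 19.6 and 23.9 CPM in WT. TCL libraries were close together, WT library 3 lay among them, and the adjusted p was 0.363. Insig2, its counterpart, differed by -0.21 on the log2 scale (adjusted p 0.581).

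Stard4, a carrier of free cholesterol between membranes, lies on chromosome 18 and had 5.88, 6.73 and 7.38 CPM in TCL libraries 4, 8 and 10, against 3.68, 2.33 and 3.83 CPM in WT libraries 3, 7 and 9. The groups lay apart, at a fitted fold change of 2.02. At this low level, from 38 to 197 reads, the log2 fold change of 1.02 (SE 0.32, 95% interval 0.30 to 1.74) did not pass in edgeR (adjusted p 0.106), while DESeq2 called it (adjusted p 0.0373).

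The 3 enzymes that make palmitate all had log2 fold changes above 0, and none passed. Acly, which turns citrate into acetyl-CoA, had 174, 154 and 207 CPM in TCL libraries 4, 8 and 10 and 143, 140 and 146 CPM in WT libraries 3, 7 and 9. The groups lay apart, with an adjusted p of 0.253. Acaca, acetyl-CoA carboxylase, differed by 0.17 and Fasn, fatty acid synthase, by 0.33 on the log2 scale. For Fasn TCL library 10 was highest, at 62.6 CPM, against 37.4 and 41.7 CPM in TCL libraries 4 and 8 and at most 42.6 CPM in WT. Summed, the 3 genes had 208.5 to 284 CPM in TCL and 187 to 201 CPM in WT, with groups apart. Acly made up most of this sum. The groups of Acly and of Acaca each lay apart, and those of Fasn overlapped.

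Of 7 desaturase and elongase genes Scd2 rose and 6 did not pass, and 4 had an unadjusted p under 0.05, where 22.4% of all genes tested did. The sums of the 7 genes lay apart, from 403 to 447 CPM in TCL and from 316 to 371 CPM in WT. Without Scd2 they overlapped, from 302 to 325 CPM in TCL and from 259 to 305 CPM in WT. The 4 genes at an unadjusted p under 0.05 are paralog pairs whose log2 fold changes had opposite signs. Scd1 and Scd2 both place a double bond in the middle of stearic and palmitic acid. They lie near each other on chromosome 19 (GRCm38), Scd2 at 44293674 to 44306864 and Scd1 at 44394455 to 44407879.

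Scd2 had 121, 101 and 122 CPM in TCL libraries 4, 8 and 10, against 69.9, 56.3 and 65.7 CPM in WT libraries 3, 7 and 9. Every TCL value was above every WT value. The log2 fold change was 0.84 (SE 0.15, 95% interval 0.50 to 1.18, adjusted p 0.0161 in edgeR's test). The call was lost without TCL library 4 (adjusted p 0.0723), WT library 3 (0.0502), WT library 7 (0.0542) or WT library 9 (0.0581), with log2 fold changes from 0.76 to 0.93 over all settings.

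Scd1 had 11.3, 16.9 and 10.04 CPM in TCL and 15.0, 33.0 and 24.5 CPM in WT. WT library 7 was highest and WT library 3 lay within the range of TCL. The log2 fold change was -0.92 (SE 0.31) with an adjusted p of 0.127, and DESeq2 alone called it (adjusted p 0.0481). Without WT library 7 the log2 fold change was -0.63 (adjusted p 0.346). The ratio of Scd2 to Scd1 was 10.7, 5.97 and 12.1 in TCL libraries 4, 8 and 10, against 4.66, 1.71 and 2.68 in WT libraries 3, 7 and 9. Added together, the pair had 133, 118 and 132 CPM in TCL and 84.9, 89.3 and 90.2 CPM in WT. No test was made of these ratios and sums, since the pair was singled out after its values were seen.

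Most markers of stromal cells were lower in TCL in the same libraries. Of 13 tested genes of the stromal and endothelial marker list 9 fell and 1, Pecam1, rose in TCL. Kdr also had a log2 fold change above 0 (0.22), which did not pass. The summed level of the list ran from 264 to 435 CPM in TCL and from 456 to 987 CPM in WT. Pecam1 made up most of this sum in TCL, at 203, 261 and 169 CPM in TCL libraries 4, 8 and 10. In WT libraries 3, 7 and 9 it had 96.4, 91.7 and 86.8 CPM. Adipoq, the adipocyte hormone adiponectin, had 0, 0.367 and 0 CPM in TCL libraries 4, 8 and 10 and 4.67, 13.6 and 8.998 CPM in WT libraries 3, 7 and 9. Lpl, lipoprotein lipase, had 40.1, 133 and 65.9 CPM in TCL and 207, 428 and 396.5 CPM in WT. In WT the order of libraries in Scd1, Adipoq and Lpl was the same, with library 7 highest, library 9 next and library 3 lowest. The B cell sum had this order too, at 370, 918 and 663 CPM in WT libraries 3, 7 and 9, as did the first principal component. Among the other enzymes of the set Acat2, Fdps, Fdft1, Cyp51 and Hsd17b7 also had this order in WT, with Fdps nearly level. The order was thus not particular to Scd1. The share of all genes with this order was not counted. In TCL library 8 was highest in Scd1, Adipoq and Lpl, but TCL library 4 was above TCL library 10 in Scd1 and below it in Lpl. The part of these cells in the Scd1 values was not tested.

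Fads1 and Fads2, the delta-5 and delta-6 desaturases that make polyunsaturated fatty acids, lie side by side on chromosome 19, Fads2 at 10062765 to 10101746 and Fads1 at 10182888 to 10196877. Fads2 had 4.79, 9.87 and 7.60 CPM in TCL libraries 4, 8 and 10, against 2.97, 2.82 and 3.40 CPM in WT libraries 3, 7 and 9. Every TCL value was above every WT value, with a log2 fold change of 1.27 (SE 0.34, 95% interval 0.50 to 2.05). It did not pass in edgeR (adjusted p 0.07), but did in DESeq2 (adjusted p 0.0112).

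Fads1 had 15.6, 25.5 and 18.4 CPM in TCL and 27.6, 28.3 and 35.5 CPM in WT. Here every TCL value was below every WT value, with -0.62 as the log2 fold change, an SE of 0.22 and an adjusted p of 0.145. In the settings run Fads1 was called only without TCL library 8, the highest of the TCL libraries (adjusted p 0.0464). The ratio of Fads2 to Fads1 was 0.306, 0.387 and 0.413 in TCL and 0.107, 0.0998 and 0.0958 in WT. This pair too was singled out after its values were seen.

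**Figure D3:**
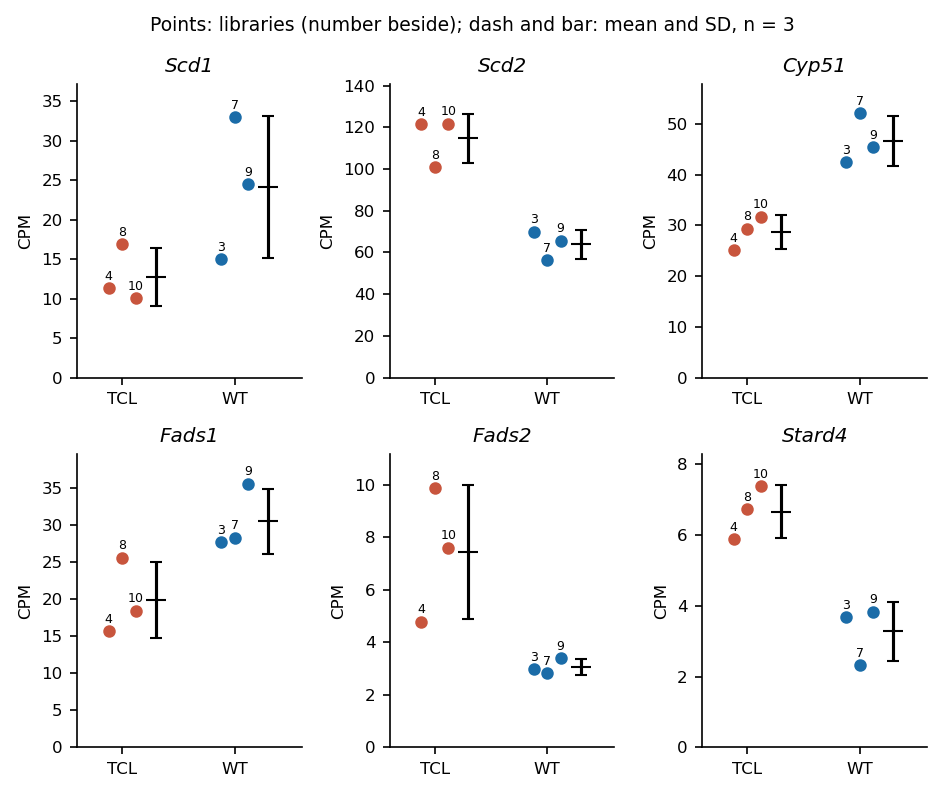
CPM (y axes, from 0) of 6 genes in each TCL (red, left) and WT (blue, right) library, numbered, with the mean and SD of each group beside the points. Scd2, Fads2 and Stard4 lie higher in every TCL library and Cyp51 and Fads1 lower in every TCL library, while WT library 3 of Scd1 lies within the TCL range.

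The elongases were closer to even. Elovl1, which lengthens saturated chains, had 130, 141 and 134 CPM in TCL and 121, 112 and 125 CPM in WT. Its groups lay apart, but the difference was 0.18 on the log2 scale (adjusted p 0.453). Elovl5, which acts on polyunsaturated chains, differed by 0.37 and Elovl6, which makes stearate from palmitate, by -0.26, both with overlapping groups. Per kilobase of exon Elovl1 was the most abundant of the 33 in both groups, at 49.5 CPM per kb in TCL and 43.7 CPM per kb in WT. Scd2 was the sixth of the 33 by this measure in TCL, at 21.0 CPM per kb, and the ninth in WT, at 11.7 CPM per kb.

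In the authors' deposited table the adjusted p was under 0.05 for 3 of the 33 genes, Cyp51, Scd2 and Fads2, against 8.11% of the genes with a p-value there. The authors' deposited table gave adjusted p-values of 0.0505 for Stard4 and 0.0529 for Scd1. DESeq2 run on the recovered reads called 5 of the 33, Scd2, Fads2 and Stard4 higher and Cyp51 and Scd1 lower, against 11.2% of genes with an adjusted p.

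Genes next to these pathways were counted from 4 further lists. Of 11 other isoprenoid and sterol synthesis genes none passed in edgeR, where 2 had an unadjusted p under 0.05. Of 11 tested genes of the LXR pathway and cholesterol export, the route that answers to a surplus of sterols, 1 rose, Pltp, 1 fell, Apoe, and 9 did not pass. Of 25 other fatty acid and lipid synthesis genes 1 rose, Acsl1, and 24 did not pass. Of 19 genes of fatty acid oxidation none passed in edgeR, with 1 at an unadjusted p under 0.05, and for 18 of these the 95% interval lay within 2-fold.

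Pltp, the phospholipid transfer protein, had 543, 360 and 525 CPM in TCL libraries 4, 8 and 10, against 209, 101 and 185 CPM in WT libraries 3, 7 and 9. Every TCL value was above every WT value, a difference of 1.53 on the log2 scale (SE 0.27, adjusted p 0.0154 in edgeR), and was not called without TCL library 4 (adjusted p 0.0599).

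Apoe, the apolipoprotein that carries cholesterol out of macrophages, had 2714, 1477 and 1605 CPM in TCL and 6335, 5716 and 5436 CPM in WT, and fell in TCL, with a log2 fold change of -1.59 and an SE of 0.25. The adjusted p in edgeR was 0.00806, and no setting run lost this call. Some macrophage markers were lower too. Of 13 macrophage and monocyte markers 5 fell and 0 rose. The log2 fold change was below 0 for 9 and above 0 for 4, among them Csf1r (0.61) and Mertk (0.65), which did not pass. The summed level of the list ran from 5307 to 6774 CPM in TCL and from 8260 to 9569 CPM in WT. The part of macrophages in the Apoe values was not tested. Acsl1, which joins fatty acids to coenzyme A, had 106, 113 and 109 CPM in TCL and 76.0, 64.6 and 78.7 CPM in WT, at a log2 fold change of 0.58 (SE 0.14). Its adjusted p of 0.0496 in edgeR was over the threshold without any single library, up to 0.14, with limma-voom (0.0535), when genes needed 5 CPM in 3 libraries (0.056), and by limma on log2 values at a pseudocount of 0.5 (0.0503).

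**Figure D4:**
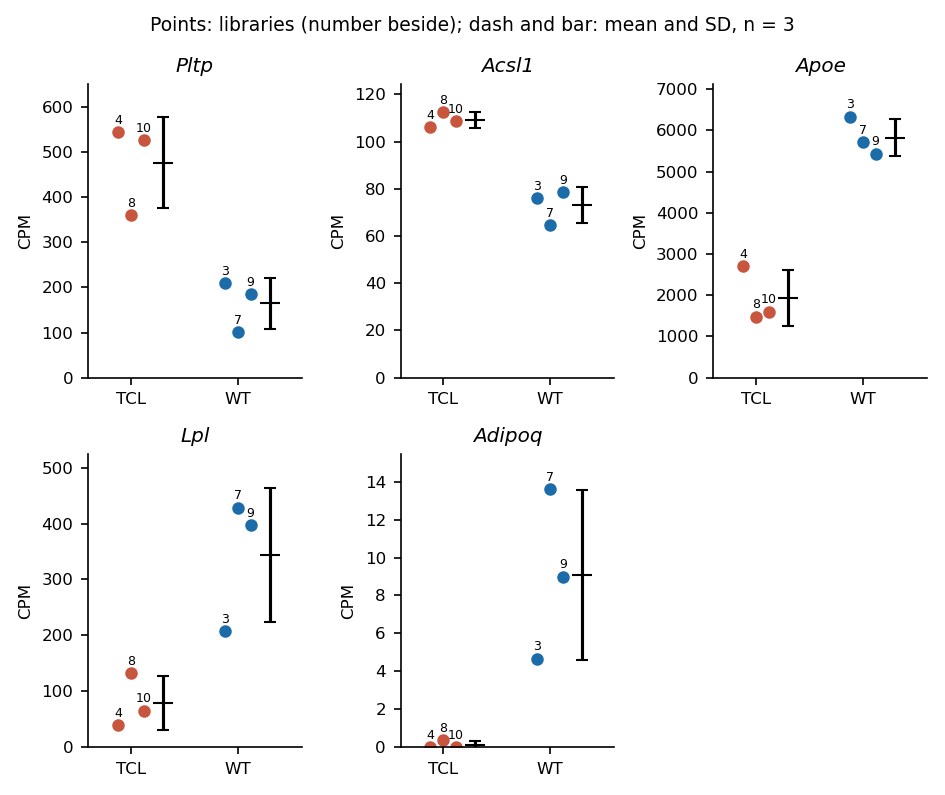
CPM (y axes, from 0) of 5 genes of lipid handling in each TCL (red, left) and WT (blue, right) library, numbered, with the mean and SD of each group beside the points. Pltp and Acsl1 lie higher in every TCL library, and Apoe, Lpl and Adipoq lower, with Adipoq at 0 CPM in 2 TCL libraries.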

How the data were processed

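Poly(A) RNA was sequenced from sorted bone marrow dendritic cells of 3 TCL and 3 WT samples. Build mm10 and the tools STAR 2.4.2a, cutadapt, HTSeq and DESeq2 are listed in the submitters' processing notes, without the step each served. The authors deposited a normalized signal per gene and library, with their own log2 fold change, p-value and adjusted p-value, per the file headers. Divided by the smallest value of their library, 100% of the values other than 0 came out whole, within a tolerance of 0.001, so reads were recovered as gene counts. Columns carry a group and a number that matches no replicate label, and were used without pairing.

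Counts were filtered with filterByExpr and scaled with TMM factors, and TCL was compared with WT over all genes by the quasi-likelihood test of edgeR 4.0.16 (R 4.3.3), with robust dispersion and Benjamini-Hochberg adjustment. Standard errors are the absolute log2 fold change over the square root of F. In reads simulated for this comparison over 12804 genes, 43.4% of 2-fold and 83.5% of 4-fold changes were recovered, with 4 false among 128 calls. These reads were drawn with the fitted dispersions, with fewer genes changed than were called in the data. No simulated library was set apart from its group, so the rates in the data may differ. Because the deposited signal is normalized, limma 3.58.1 was run on log2 of the value plus 1 and called 594 genes. Other alternatives were DESeq2 1.42.0, limma-voom, other scalings and filters, a pseudocount of 0.5 and each library left out. Leaving out genes with shared windows was added after the data were seen. Positions and exon lengths are from GENCODE M21 on GRCm38, the assembly of mm10. The genes and lists were chosen with earlier results of these data known, and the text names each of the 33 and, from the 4 further lists, those that passed. A further list of sterol genes is not reported here.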

Additional observations from a re-analysis of the deposited data

How the results depend on the processing

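Scd2 was called under every scaling, filter and tool tried and Cyp51 under all of these but scaling to library size only, where 1 of the 33 genes was called. DESeq2 called 5 of the 33 and 1453 genes in all, against 2 and 604. On leaving out 1 library at a time from 0 to 2 of the 33 were called, and from 246 to 904 of all genes. Neither was called without TCL library 4, WT library 3, WT library 7 or WT library 9. The median log2 fold change of the 33 was 0.195 with scaling to library size only and 0.0177 with the filter of 5 CPM in 3 libraries, which removed low genes, and ran from 0.0304 to 0.156 with 1 library left out. It was 0.0681 without the 5 genes of shared windows. Of the 33 genes 26 kept the sign of the log2 fold change in every alternative that gave a value, 14 for each but Idi1 and Fads2, which the filter of 5 CPM removed and which had 13. With scaling to library size only the sign of Hmgcs1 turned (0.0013), as did that of Dhcr7 (0.0543), which also turned with limma on log2 values (0.000446 and 0.000466 at pseudocounts of 1 and 0.5). Scap turned with the CPM filter (-0.00178) and limma-voom (-0.00451). With 1 library left out values ran from -0.585 to 0.0816 for Acat2, -0.302 to 0.00936 for Pmvk, -0.093 to 0.193 for Fdft1, -0.0975 to 0.164 for Nsdhl, -0.183 to 0.156 for Dhcr7 and -0.131 to 0.157 for Scap. The cause of these changes was not tested. No paired analysis was possible because the column numbers do not carry the replicate numbers of the labels. At this depth low genes such as Idi1 and Stard4 have wide intervals.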

Other observations

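Srebf2 differed more between libraries of a group than between the groups, and its libraries followed those of the dendritic cell marker Itgax. Itgax had 516, 375 and 655 CPM in TCL libraries 4, 8 and 10 and 512, 383 and 528 CPM in WT libraries 3, 7 and 9. In both groups Srebf2 had the same order of libraries. Among the 33 genes Acly and Acaca also had this order in both groups, which makes 3 of 33 (9.09%), against 8.68% of all genes tested, so the order is not more frequent in these genes than elsewhere.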
